A study of Mus musculus with 7 samples.

Results

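Tight junctions are the belts of protein that close the space between neighbouring keratinocytes in the granular layer of the epidermis. Claudins and occludin span the membranes of both cells and form the seal, junctional adhesion molecule A sits beside them, and a cytoplasmic plaque of zonula occludens proteins and cingulin ties the seal to actin. In mouse skin the seal is best known for holding water in, and mice born without claudin 1 die of water loss. The set described here holds 9 genes of this structure, chosen by name. These are the claudins Cldn1, Cldn4, Cldn7 and Cldn12, occludin (Ocln), junctional adhesion molecule A (F11r), zonula occludens 1 and 3 (Tjp1 and Tjp3), and cingulin (Cgn). They are 9 of the 56691 genes in the count table, and 8 of them had counts and were among the 12888 genes tested.

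The libraries, 1 per mouse, read the 3' ends of polyadenylated RNA from skin. Knockout (KO) mice 2, 3 and 4 lacked Tuft1 and gave skin that looked healthy, and wild-type (WT) mice 5, 6, 7 and 8 gave the healthy skin they were compared with. Tuft1 encodes tuftelin 1, which the study's title calls a desmosome-associated protein. Strain, age, skin site and the way Tuft1 was disrupted are not stated in the sources at hand. Levels are TMM-scaled CPM, that is, counts relative to the library's scaled total. Because each transcript is counted at its 3' end, CPM does not grow with transcript length and is used as it is when genes are compared. Values of single mice are listed by rising mouse number throughout.

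Depth was 7009237 to 9086523 counts per KO library and 8490972 to 9256459 per WT library. Tuft1 itself measured 19.9, 29.1 and 17.2 CPM in KO skin, against 106, 104, 55.6 and 114 CPM in WT skin (log2 fold change -2.10, SE 0.39, edgeR adjusted p = 0.172). Each KO library thus lay below each WT library, and tags from outside a disrupted stretch would still be counted. All 10 keratinocyte markers listed, Krt5, Krt14, Krt10 and Dsp among them, had counts, and they summed to 19347 to 20622 CPM in KO and 19450 to 24898 CPM in WT skin. All 12 granular layer markers had counts too, summing to 6738 to 9449 CPM in KO and 8789 to 14757 CPM in WT skin. In whole skin, fewer cells of a type and less RNA per cell cannot be told apart. Fat cell markers summed to 8179 to 10322 CPM in KO and 14986 to 22909 CPM in WT skin, and hair follicle markers to 1491 to 2165 CPM in KO and 997 to 1307 CPM in WT skin. Endothelium markers summed to 185 to 228 CPM in KO and 188 to 335 CPM in WT skin. The part of these tissues in the results below was not tested.

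Promoters are shown for the 4 members with the highest levels, since these supply most of the tight junction counts. Each stretch runs from 250 bases before to 50 bases after the start site and comes from RefSeq on GRCm38.p6, whereas the count table uses mm39. Capitals mark motifs found on either strand: the E-box CAGGTG or CACCTG, bound by repressors of the Snail and Zeb families, and the GC box GGGCGG or CCGCCC, bound by Sp1-type factors. The stretch of Cldn1 is on the minus strand at chr16:26371790-26372089, and that of F11r on the plus strand at chr1:171437311-171437610. That of Cgn is on the minus strand at chr3:94786433-94786732, and that of Cldn4 on the minus strand at chr5:134946885-134947184.
Cldn1: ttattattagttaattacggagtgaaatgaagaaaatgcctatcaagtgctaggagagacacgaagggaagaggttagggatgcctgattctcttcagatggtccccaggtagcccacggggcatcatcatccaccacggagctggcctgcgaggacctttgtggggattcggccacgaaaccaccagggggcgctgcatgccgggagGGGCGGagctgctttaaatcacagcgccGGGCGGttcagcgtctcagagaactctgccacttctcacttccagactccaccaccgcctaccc
F11r: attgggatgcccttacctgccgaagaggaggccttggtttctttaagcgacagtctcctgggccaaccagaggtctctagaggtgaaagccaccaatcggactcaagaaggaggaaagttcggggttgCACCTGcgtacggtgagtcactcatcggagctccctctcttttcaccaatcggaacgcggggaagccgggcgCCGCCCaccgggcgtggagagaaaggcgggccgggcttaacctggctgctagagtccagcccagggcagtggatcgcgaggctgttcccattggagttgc
Cgn: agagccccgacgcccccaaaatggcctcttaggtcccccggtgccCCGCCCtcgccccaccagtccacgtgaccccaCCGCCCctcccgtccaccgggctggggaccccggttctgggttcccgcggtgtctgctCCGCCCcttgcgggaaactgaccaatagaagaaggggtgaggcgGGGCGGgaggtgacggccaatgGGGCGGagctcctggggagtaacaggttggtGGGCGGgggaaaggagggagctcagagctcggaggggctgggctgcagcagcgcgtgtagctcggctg
Cldn4: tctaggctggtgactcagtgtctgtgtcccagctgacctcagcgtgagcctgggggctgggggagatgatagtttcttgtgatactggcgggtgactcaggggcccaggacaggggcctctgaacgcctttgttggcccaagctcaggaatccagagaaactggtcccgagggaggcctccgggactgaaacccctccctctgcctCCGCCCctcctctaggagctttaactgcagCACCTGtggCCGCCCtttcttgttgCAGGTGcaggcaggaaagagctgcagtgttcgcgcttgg

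An E-box stood once in the F11r stretch and 2 times in that of Cldn4, and its letters were not found in those of Cldn1 and Cgn. GC boxes stood 2 times in the Cldn1 stretch, once in that of F11r, 6 times in that of Cgn and 2 times in that of Cldn4. Across 32851 promoter stretches of the same length, 20.2% held an E-box and 35.7% a GC box. All 9 members were matched by symbol, to 14 stretches in all, of which 7 held an E-box and 10 a GC box. The TATA box TATAAA or TTTATA, present in 13.6% of all stretches, and the grainyhead consensus AACCGGTT, present in 0.146%, were found in 0 of the 14. G and C made up 56% of the Cldn1, 60.3% of the F11r, 70.3% of the Cgn and 61% of the Cldn4 stretch, against a median of 52.7% over all stretches. These matches describe letters and are not binding sites.

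No tight junction gene of the set passed the test of KO against WT skin. At an adjusted p below 0.05, 0 of the 8 tested members were called by edgeR's quasi-likelihood test, by the DESeq2 Wald test or by limma-voom, and each had an edgeR adjusted p of 0.9997. Over all genes edgeR called 0.0233% (0.0155% higher and 0.00776% lower in KO skin), and at that rate a count of 0 among 8 says little about the members. The same holds for DESeq2, which called 123 of the 12888 genes, and for limma-voom, which called 22. At an unadjusted p below 0.05 edgeR found 0 of the 8, against 4.31% of all genes. Log2 fold changes, KO over WT, were above 0 for 5 members and below 0 for 3, and reached from -0.33 for F11r to 1.06 for Cldn12. Their median was 0.27, against -0.01 over all genes tested. It moved with single mice, to 0.030 without KO mouse 3, 0.034 without WT mouse 5, 0.11 without KO mouse 4, 0.13 without WT mouse 8 and 0.49 without WT mouse 6. Scaling libraries to keratinocyte marker counts, which raised the fold changes of all genes by a median of 0.17 on the log2 scale, put 7 members above 0 and 1 below.

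**Figure D1:**
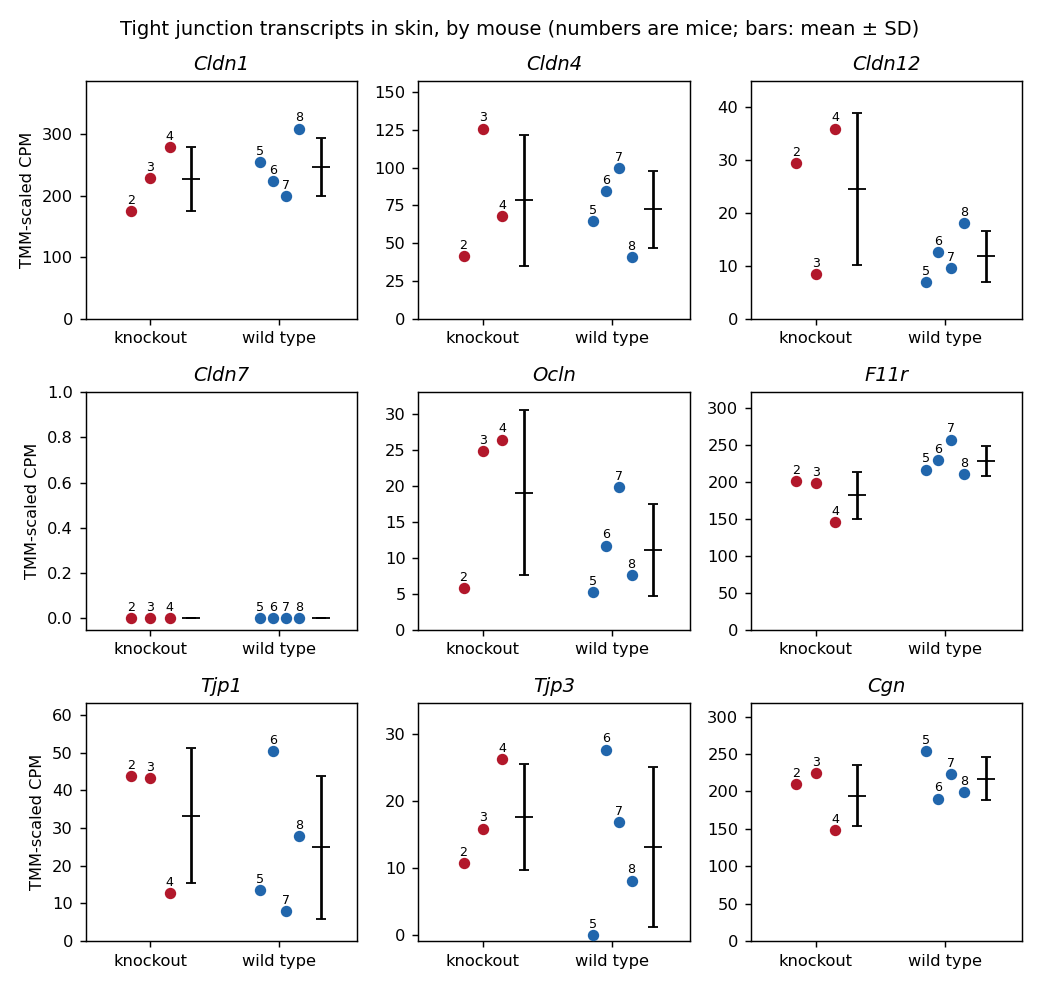
Level of each of the 9 genes (TMM-scaled CPM, linear axes) in the 3 knockout and 4 wild-type mice, with points numbered by mouse and bars for the mean ± SD. F11r is the member whose knockout values (145 to 201 CPM) all lie below its wild-type values (209.8 to 257 CPM), Cldn7 is at 0 in all 7 mice, and the groups overlap in the other 7 genes.

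Claudin 1, the main sealing claudin of the epidermis, had the highest mean of the members in both genotypes. It exceeded Cgn, the next by mean in KO skin, in 2 of the 3 KO mice. In WT skin it exceeded F11r, the next there, in 2 of the 4 mice. Cldn1 (ENSMUSG00000022512.4; chromosome 16, 26175392 to 26190591, minus strand, mm39) measured 176, 229 and 279.9 CPM in KO skin, against 255, 225, 200.1 and 309.7 CPM in WT skin. The groups overlapped, with the lowest value in KO mouse 2 and the highest in WT mouse 8. KO skin averaged 228 ± 52.2 CPM (SD, n = 3) and WT skin 247 ± 47.2 CPM (SD, n = 4). The fold change on the log2 scale was -0.12 (SE 0.24), with a 95% interval of -0.64 to 0.41, which is 0.640 to 1.33 times the WT level. Its sign was not fixed, since the value was 0.037 without KO mouse 2, 0.0098 without WT mouse 8 and 0.046 after scaling to keratinocyte marker counts.

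Claudin 4, which joins claudin 1 in the upper epidermis, was less abundant and less even. Cldn4 (ENSMUSG00000047501.4; chromosome 5, 134973973 to 134975788, minus strand) measured 41.3, 126 and 68.0 CPM in KO skin, against 64.4, 84.4, 99.7 and 40.7 CPM in WT skin. KO mouse 3 was highest of all, and WT mouse 8 lowest, next to KO mouse 2. Its log2 fold change was 0.12 (SE 0.42), with a 95% interval of -0.78 to 1.02. The value turned to -0.41 without KO mouse 3 and to -0.080 without WT mouse 8.

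Claudin 12, which lacks the tail motif by which most claudins bind zonula occludens proteins, had the highest fold change of the set in edgeR with all 7 mice. Tjp3 was higher in limma-voom (2.22 against 0.84 for Cldn12), Ocln without KO mouse 2 (1.20 against 0.91 for Cldn12) and without WT mouse 7 (1.22 against 0.97 for Cldn12), and Tjp1 without KO mouse 4 (0.80 against 0.67 for Cldn12), all on the log2 scale. Cldn12 (ENSMUSG00000046798.15; chromosome 5, 5539537 to 5564958, minus strand) measured 29.4, 8.40 and 35.9 CPM in KO skin, against 6.89, 12.6, 9.57 and 18.1 CPM in WT skin. KO mice 2 and 4 lay above the 4 WT mice, while KO mouse 3 lay inside their range. KO skin averaged 24.6 ± 14.4 CPM (SD, n = 3) and WT skin 11.8 ± 4.80 CPM (SD, n = 4). The log2 difference of 1.06 (SE 0.86) had a 95% interval of -0.80 to 2.92, and leaving out single mice gave 0.67 (KO mouse 4) to 1.47 (KO mouse 3).

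Claudin 7, a claudin that binds the adhesion protein EpCAM, had no counts. Cldn7 (ENSMUSG00000018569.13; chromosome 11, 69855605 to 69858711, plus strand) had 0 counts in all 7 libraries and could not be tested. With 3 counts as the limit, this allows up to 0.336 to 0.395 CPM in KO libraries and 0.323 to 0.371 CPM in WT libraries, for counting error only. The limit applies to tags within the annotated exons, and whether these hold the 3' end used in skin was not tested. No other gene in the table overlaps it. Epcam, named here after its values were seen, was counted in all 7 libraries, with a mean of 75.3 ± 43.8 CPM in KO skin (SD, n = 3) and 41.7 ± 10.04 CPM in WT skin (SD, n = 4).

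Cldn1 led the claudin counts in each library. The table lists 26 claudin genes, of which 11 had counts. Cldn1 took 51.3%, 46.9% and 63.5% of all claudin counts in KO skin, against 53.0%, 48.6%, 38.4% and 58.2% in WT skin. The genotypes overlapped, with the lowest share in WT mouse 7. Cldn4 took 17.8 ± 7.13% in KO and 14.6 ± 5.28% in WT skin. Cldn12 took 6.15 ± 3.84% in KO and 2.35 ± 0.883% in WT skin, but KO mouse 3, at 1.72%, lay inside the WT range of 1.43% to 3.39%. Cldn23, a claudin outside the set, took 13.4 ± 3.71% in KO and 19.6 ± 7.98% in WT skin (SD, n = 3 KO and n = 4 WT for all of these). These shares were not tested.

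**Figure D2:**
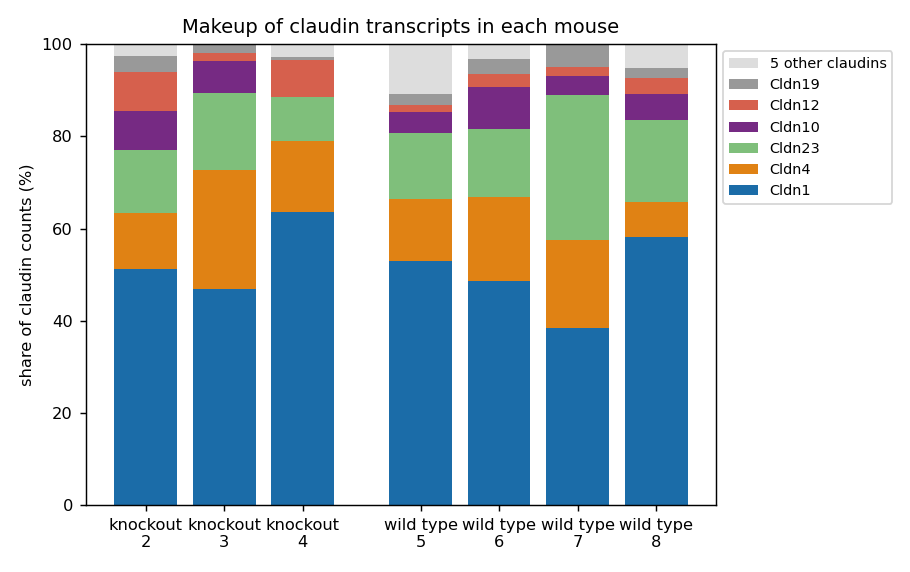
Share of claudin counts (%) by gene in each library, knockout mice at the left and wild-type mice at the right, with 5 further claudins pooled. Cldn1 is the largest piece in all 7 bars, at 38.4% to 63.5%, and the Cldn12 piece is larger in knockout mice 2 and 4 than in the other 5 mice.

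Occludin, the first membrane protein of tight junctions to be identified, was among the scarcer members. Ocln (ENSMUSG00000021638.13; chromosome 13, 100633015 to 100689226, minus strand) measured 5.82, 24.9 and 26.4 CPM in KO skin, against 5.28, 11.7, 19.9 and 7.55 CPM in WT skin. KO mice 3 and 4 exceeded the WT mice, and KO mouse 2 lay near their lowest value. The log2 difference was 0.78 (SE 1.01). Its 95% interval, -1.40 to 2.95, spans a fall as well as a rise of more than 2-fold. Leaving out single mice gave 0.46 (KO mouse 4) to 1.22 (WT mouse 7).

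Junctional adhesion molecule A was the member whose groups did not overlap. F11r (ENSMUSG00000038235.5; chromosome 1, 171265103 to 171292171, plus strand) measured 201, 198 and 145 CPM in KO skin, against 216, 229, 257 and 209.8 CPM in WT skin. Each KO mouse was below each WT mouse, and the margin was smallest between KO mouse 2 and WT mouse 8. KO skin averaged 182 ± 31.5 CPM (SD, n = 3) and WT skin 228 ± 20.8 CPM (SD, n = 4). The difference did not pass the test, with a log2 fold change of -0.33 (SE 0.22) and a 95% interval of -0.81 to 0.16, which is 0.569 to 1.11 times the WT level. Of all genes tested 6.89% did not overlap between the groups (3.44% higher and 3.45% lower in KO skin), so that 1 of 8 members is no result about the set. The value was -0.20 without KO mouse 4.

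Counted per 1000 keratinocyte marker counts, F11r was at 9.75, 10.02 and 7.51 in KO skin, against 8.69, 9.74, 11.4 and 10.8 in WT skin. On this scale the groups overlapped, and the log2 fold change was -0.16. F11r supplied 88.5 ± 5.56% of the counts of the junctional adhesion molecule genes F11r, Jam2 and Jam3 in KO skin (SD, n = 3) and 91.5 ± 3.72% in WT skin (SD, n = 4). Endothelium and blood cells also make F11r.

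The plaque held an abundant cingulin and scarcer zonula occludens transcripts. Cgn (ENSMUSG00000068876.17; chromosome 3, 94667376 to 94693826, minus strand) encodes cingulin, the rod-shaped protein that links the junction to actin and myosin. It measured 210.3, 225 and 148 CPM in KO skin, against 254, 191, 224 and 199 CPM in WT skin. The groups overlapped, with KO mouse 4 lowest. KO skin averaged 194 ± 40.6 CPM (SD, n = 3) and WT skin 217 ± 28.6 CPM (SD, n = 4). Its log2 fold change was -0.16 (SE 0.24), with a 95% interval of -0.67 to 0.35, which is 0.630 to 1.27 times the WT level. The value was 0.016 after scaling to keratinocyte marker counts and -0.0018 without KO mouse 4. Cgn made up 87.3 ± 3.29% of the summed counts of Cgn and its relative paracingulin (Cgnl1) in KO skin (SD, n = 3) and 90.5 ± 4.08% in WT skin (SD, n = 4).

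Cgn is a neighbour of Tuft1. Both genes are on chromosome 3, minus strand, with Tuft1 at 94520064 to 94566179 (mm39) and the span of Cgn beginning 101196 bases beyond it. Of the 5 genes the table lists between them, 0 had counts. On the other side, at a distance of 30040 bases, lies Snx27, a sorting nexin of endosomes. Snx27 measured 46.7, 44.0 and 75.4 CPM in KO skin, against 57.8, 64.4, 21.5 and 73.9 CPM in WT skin. Its groups overlapped, with a log2 fold change of 0.025 (SE 0.44). The gene model Gm43774, the remaining tested gene within 150 kb, had a log2 fold change of 1.50 (SE 1.90), which was 3.17 without WT mouse 8 and 4.31 in limma-voom, and its groups overlapped too.

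ZO-1, the scaffold that gathers claudins into strands, varied widely within both genotypes. Tjp1 (ENSMUSG00000030516.15; chromosome 7, 64945913 to 65177529, minus strand) measured 43.9, 43.3 and 12.6 CPM in KO skin, against 13.5, 50.5, 7.98 and 27.8 CPM in WT skin. High and low values were mixed between the genotypes, and both the highest and the lowest were WT. The log2 difference of 0.42 (SE 0.73) had a 95% interval of -1.16 to 1.99, and it was 0.12 without WT mouse 7 and 1.01 without WT mouse 6.

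ZO-3, a related scaffold of epithelia, was close to the least abundant of the genes with counts. Tjp3 (ENSMUSG00000034917.9; chromosome 10, 81109041 to 81127415, minus strand) measured 10.7, 15.9 and 26.3 CPM in KO skin, against 0, 27.7, 16.9 and 8.17 CPM in WT skin. The 0 of WT mouse 5 allows up to 0.323 CPM, with 3 counts as the limit, and stands beside 66 to 246 counts in the other WT mice. The log2 difference of 0.42 (SE 1.35) became 0.0044 without that mouse, 0.0092 without KO mouse 4 and 1.06 without WT mouse 6, and it was 2.22 in limma-voom. The 3' end of Tjp3 overlaps that of Apba3 on the opposite strand by 40 bases. No source at hand says whether counting used the strand, so its values are uncertain.

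**Figure D3:**
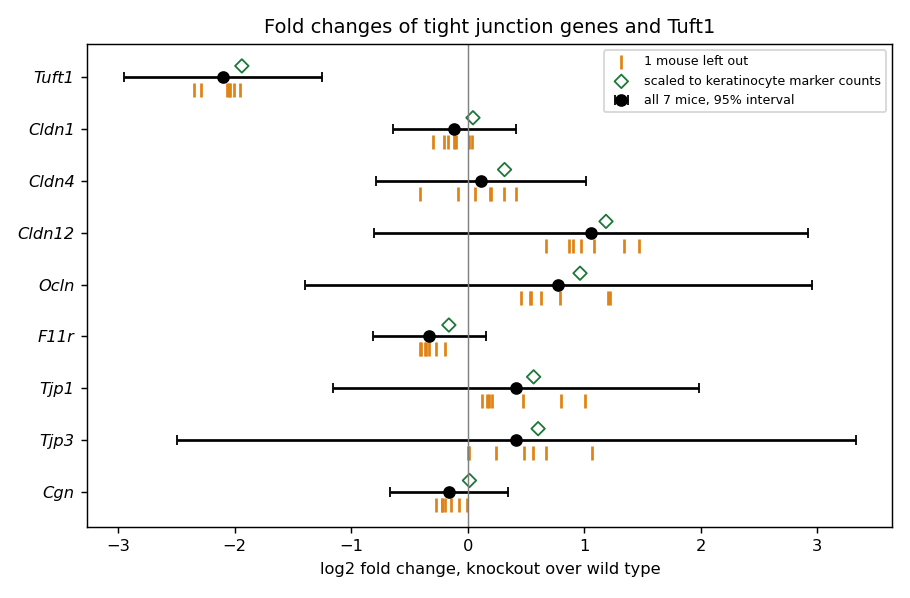
Log2 fold change, knockout over wild type, of Tuft1 and the 8 tested members, with the 95% interval from edgeR (black), the values with 1 mouse left out (orange ticks) and the value with libraries scaled to keratinocyte marker counts (green diamonds). Intervals are narrow for Cldn1, F11r and Cgn, wide for Cldn12, Ocln and Tjp3, and include 0 for all 8 members, while that of Tuft1 runs from -2.95 to -1.25.

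Ordered by mean level, the same 5 genes led in both genotypes. In KO skin the order was Cldn1, Cgn, F11r, Cldn4, Tjp1, Cldn12, Ocln, Tjp3 and Cldn7, and in WT skin it was Cldn1, F11r, Cgn, Cldn4, Tjp1, Tjp3, Cldn12, Ocln and Cldn7. The upper 3 genes stood clear of Cldn4 in both genotypes. In KO skin the lowest F11r value was 145 CPM and the highest Cldn4 value 126 CPM, and in WT skin the lowest Cgn value was 191 CPM and the highest Cldn4 value 99.7 CPM. Ranges of neighbours overlapped among the upper 3 genes and from Cldn4 down to the last member with counts. Cldn1, F11r and Cgn supplied 78.0 ± 3.47% of the members' summed CPM in KO skin (SD, n = 3) and 83.9 ± 5.33% in WT skin (SD, n = 4). The sum over all 9 genes was 718, 870.2 and 743 CPM in KO skin, against 816, 831, 835 and 821 CPM in WT skin. The 4 WT sums lay between those of KO mice 4 and 3.

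Members differed in how far mice of the same genotype lay apart. The within-group SD of log2 CPM was 0.19 for F11r, 0.25 for Cgn and 0.30 for Cldn1, at percentiles 1.76, 4.41 and 7.27 among the 12888 genes tested. It was 0.67 for Cldn4, 0.84 for Cldn12, 0.99 for Ocln and 1.10 for Tjp1, where the median over all genes was 0.96. For Tjp3 it was 2.44, a value that includes the library at 0. The 95% interval of the fold change was 0.573 to 7.57 times the WT level for Cldn12 and 0.379 to 7.75 times for Ocln. It was 0.448 to 3.97 times for Tjp1 and 0.178 to 10.07 times for Tjp3. For these 4 genes, rises of several-fold could have been missed at this spread. For Ocln, Tjp1 and Tjp3, so could falls of more than 2-fold.

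**Figure D4:**
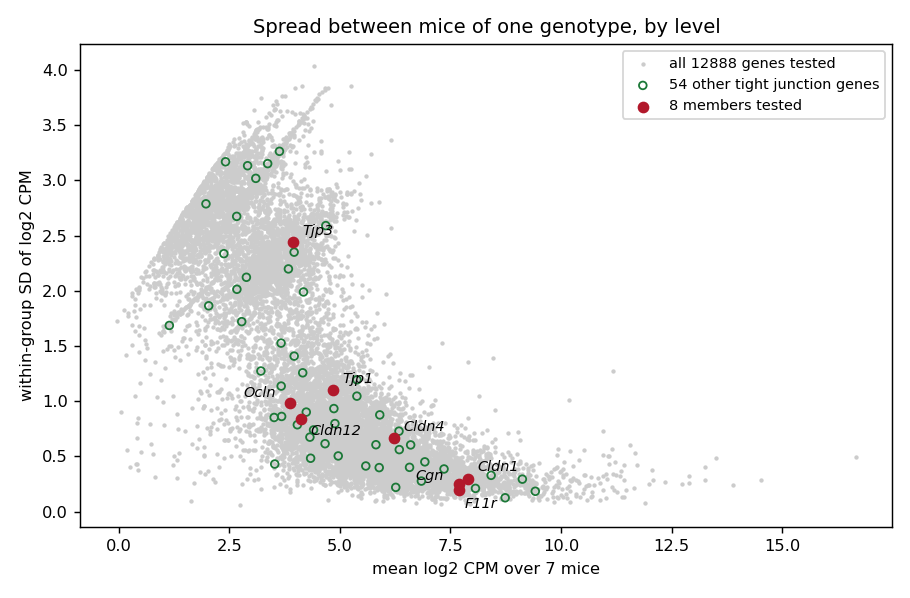
Within-group SD of log2 CPM against mean log2 CPM over 7 mice, for all 12888 genes tested (grey), the 54 other tight junction genes tested (green) and the 8 tested members (red). F11r, Cgn and Cldn1, the members with the highest levels, have SDs of 0.19 to 0.30, while Tjp3 is at 2.44.

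The remaining genes of the junction came from lists of 70 genes, 54 of which were tested. By edgeR, 0 were called, against 0.0233% of all genes, and 2, Arhgef2 and Cldn5, had an unadjusted p below 0.05, against 4.31% of all genes. Log2 fold changes were above 0 for 21 and below 0 for 33, with a median of -0.30. Of all genes tested, 49.5% lay above 0, and their median was -0.01. No direction is read from the 54, since they include Cldn5, which passed the filter on low counts through its WT libraries. The median of the 54 was -0.14 after scaling to keratinocyte marker counts, -0.15 without WT mouse 7 and -0.17 without KO mouse 4. Groups did not overlap for 2 of the 54, Arhgef2 and Spint1, both lower in KO skin, where 6.89% of all genes did not overlap and 3.45% were lower. Neither count stands out from the whole table, and the values of these genes are given as a description. Arhgef2 encodes GEF-H1, a nucleotide exchange factor that cingulin binds and holds inactive in canine kidney cells. It measured 20.8, 12.9 and 17.8 CPM in KO skin, against 30.3, 28.6, 36.7 and 69.6 CPM in WT skin. WT mouse 8 stood above the other WT mice, and the log2 difference of -1.27 (SE 0.57, edgeR adjusted p = 0.9997) was -0.89 without it. Spint1, named after its values were seen, encodes an inhibitor of the epithelial protease matriptase. It measured 10.7, 12.3 and 6.58 CPM in KO skin, against 31.1, 15.8, 30.6 and 32.8 CPM in WT skin (log2 difference -1.48, SE 0.77, edgeR adjusted p = 0.9997).

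Of the 20 listed claudins outside the set, 8 had counts and 5 were tested, with 0 called by edgeR, against 0.0233% of all genes. No direction is read from those 5, since Cldn5 passed the filter on low counts through its WT libraries, and Cldn8, counted in 1 KO and 1 WT library, did not pass it. The 20 claudins summed to 96.0, 125 and 56.8 CPM in KO skin, against 155, 141, 211 and 164 CPM in WT skin. Each KO sum was below each WT sum, but of the 5 tested claudins 0 had groups that did not overlap, against 6.89% of all genes tested. The sums include libraries at 0 and were not tested, and no direction is read from them. Cldn23, the most abundant of these claudins, averaged 57.0 ± 22.1 CPM in KO skin (SD, n = 3) and 98.9 ± 44.5 CPM in WT skin (SD, n = 4), with overlapping groups. Its log2 difference of -0.79 (SE 0.39, edgeR adjusted p = 0.9997) was -0.44 without WT mouse 7. Granular layer markers, whose ranges overlapped, averaged 8489 ± 1519 CPM in sum in KO skin (SD, n = 3) and 11499 ± 2466 CPM in WT skin (SD, n = 4). Of the 12 markers, 4 had a log2 fold change above 0 and 8 below 0. Lor, the most abundant, averaged 4065 ± 384 CPM in KO and 6170 ± 1385 CPM in WT skin, and Flg 146 ± 20.8 and 68.5 ± 15.3 CPM. Groups did not overlap for 2 markers higher and 2 lower in KO skin, against 6.89% of all genes. The part of these markers in the claudin values was not tested.

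Cldn5, the claudin of blood vessels, had 0 counts in the 3 KO libraries and 5.92, 4.73, 0 and 3.09 CPM in WT skin. With WT mouse 7 at 0 as well, the groups overlapped. With 3 counts in each KO library as the limit, the KO mean could reach 0.373 CPM, for counting error only. The observed WT mean of 3.44 CPM was 9.21 times this limit, with no error taken for the WT libraries. This is no bound on a genotype difference, since Cldn5 passed the filter on low counts through its WT libraries. Cldn5 did not pass the test (edgeR adjusted p = 0.9997). Of the 10 endothelium markers, Cldn5 included, 0 were called by edgeR, against 0.0233% of all genes. Log2 fold changes were above 0 for 2 and below 0 for 8. No direction is read from these counts, since Cldn5 and Tek, at 0 in all KO libraries, passed the filter through their WT libraries. Pecam1 averaged 30.9 ± 11.9 CPM in KO skin (SD, n = 3) and 64.7 ± 16.3 CPM in WT skin (SD, n = 4). Vwf averaged 18.6 ± 15.1 and 6.47 ± 7.17 CPM, and Cdh5 31.9 ± 12.3 and 31.6 ± 9.75 CPM, in the same order.

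The other lists were mixed, with 0 genes called by edgeR, against 0.0233% of all genes. Arhgef2 alone had an unadjusted p below 0.05 by edgeR, against 4.31% of all genes. At these shares, neither count is a result about the lists. Of 24 tested plaque and polarity genes 9 lay above 0 and 15 below. Ybx3, a Y-box factor that binds ZO-1, was the most abundant of them, with means of 654 ± 81.7 CPM in KO and 707 ± 83.9 CPM in WT skin. Its fold change of -0.11 on the log2 scale was 0.068 after scaling to keratinocyte marker counts. Of 5 MARVEL and angulin proteins, which resemble occludin or seal the corners where cells meet, 3 lay above 0, and Marveld3 had means of 15.3 ± 11.2 CPM in KO and 10.4 ± 2.64 CPM in WT skin. Of 4 proteins related to junctional adhesion molecules 2 lay above 0, and Cxadr, the coxsackievirus and adenovirus receptor, had means of 97.5 ± 12.1 CPM in KO and 96.2 ± 40.6 CPM in WT skin. Of 5 claudin-binding proteins and proteases 3 lay above 0 (2 in limma-voom). Of 11 transcription factors 4 lay above 0, and Klf4, which the mouse skin barrier needs, had means of 296 ± 42.4 CPM in KO and 377 ± 99.9 CPM in WT skin. Errors are SDs over 3 KO and 4 WT mice.

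Averaged over the 8 tested members, log2 CPM relative to each gene's own mean was 0.0039, 0.36 and 0.30 in KO skin, against -0.98, 0.35, 0.036 and -0.070 in WT skin. WT mouse 5 was the lowest, although Cgn was highest in that mouse. The 0 of Tjp3 in WT mouse 5, which stood at log2 CPM -2.07 beside 3.07 to 4.80 in the other WT mice, weighed heavily there. Among 3481 genes with a mean of at least 50 CPM, the profiles nearest to the members' average were those of Vldlr, a lipoprotein receptor, Ablim1, an actin-binding protein, and Setd3, a methyltransferase of actin. Their root-mean-square differences from it over the 7 libraries were 0.13, 0.16 and 0.17 on the log2 scale. Single members lay farther from it, from 0.53 for Cldn1 to 1.79 for Tjp3, so the average describes no member closely. Vldlr, Ablim1 and Setd3 were each lowest in WT mouse 5, so their closeness to the average rests in part on the 0 of Tjp3.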

How the data were processed

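Per the labels' protocols, RNA of powdered frozen skin was extracted with TRIzol and made into QuantSeq 3' libraries. The authors deposited raw whole-number counts per gene with mm39 coordinates. The submitters' processing notes name STAR, Subread 2.0.3 with featureCounts, GATK 4.2.4.0 and edgeR 3.36.0, with no role or order. The authors also deposited a filtered log2 table of 12954 genes, and recomputing it from the raw counts (log2 CPM, TMM, prior of 2 counts) gave 90678 of 90678 values to within 1e-09.

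Mice were grouped by the genotype label. Raw counts were fitted in edgeR 4.0.16 (R 4.3.3) with the quasi-likelihood F test, the expression filter at a minimum of 10 counts, TMM factors and Benjamini-Hochberg adjustment over the 12888 genes kept of 19128 with counts, with calls at an adjusted p below 0.05. Standard errors and 95% intervals come from the F statistic. The script was tested on simulated data. Counts carry no molecular tags, so limits from 3 counts cover counting error only.

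Members and lists were chosen with earlier results of these data known. Named genes were Tuft1, the members, tested genes within 150 kb of Tuft1, the most abundant gene of each list, listed genes with an unadjusted p below 0.05, and the 3 nearest profiles, and 1 gene that this rule names is not reported here. Alternatives were DESeq2 1.42.0, upper-quartile factors, keratinocyte marker counts as library size, limma-voom (limma 3.58.1), no filter, the genes of the deposited filtered table, and leaving out each mouse.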

Additional observations from a re-analysis of the deposited data

Results flagged for a closer look

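In 22 named genes, the 4 WT values were searched for a mouse far from the other 3, which chance gives in about 1 of 20 groups. For Tuft1 this was WT mouse 7, whose log2 CPM was 5.80 beside 6.70 to 6.84 in the remaining WT mice. For Ablim1 it was WT mouse 5, whose log2 CPM was 5.88 beside 6.94 to 7.13. Ablim1 was chosen for its closeness to the members' average profile, in which WT mouse 5 is lowest. The rate expected by chance therefore does not apply to it. By this measure 0 of the 8 tested members had such a mouse. The measure sets the gap to the nearest mouse against the range of all 4 values, so a wide gap can go unflagged. For Tjp3, WT mouse 5 was at log2 CPM -2.07 beside 3.07 to 4.80 in the remaining WT mice. That gap was wider than the gap of Tuft1, but the remaining Tjp3 values were also more spread, and it was not flagged.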

How the results depend on the processing

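No paired analysis was made because the labels name no pairing of KO with WT mice and no batch. Members called numbered 0 under all 13 alternatives, and the median of the members stayed above 0, from 0.030 to 0.49 with 1 mouse left out. Over all genes edgeR called 3 (2 higher), DESeq2 123 (44 higher), limma-voom 22 (7 higher), edgeR without a filter on low counts 76 (34 higher), and edgeR with 1 mouse left out 0 to 1. Tuft1 passed the test in DESeq2 (log2 fold change -2.09, adjusted p = 8.77e-06) and in edgeR without a filter (-2.11, adjusted p = 0.000924). Scaling to keratinocyte marker counts turned the sign for Cldn1 (0.046), Cgn (0.016) and Ybx3 (0.068), and the median of the JAM-like list, -0.12, became 0.11. With 1 mouse left out the sign also turned for Cldn1 (-0.30 to 0.037), Cldn4 (-0.41 to 0.42), Snx27 (-0.27 to 0.21), Setd3 (-0.20 to 0.19) and Cxadr (-0.23 to 0.23). The cause was not tested. Cldn12, Ocln, F11r, Tjp1 and Tjp3 kept their sign under all 13 alternatives. For Cldn7, depth limits what libraries at 0 counts can show. The 0 of Tjp3 was in WT mouse 5, the deepest library at 9256459 counts, and its cause was not tested.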

Other observations

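Claudin counts were either 0 or well above it. Among the 11 claudin genes with counts, 25 of the 77 values were 0, and the lowest value above 0 was 18 counts. Cldn10 had 220, 299 and 0 counts in the KO libraries, against 200, 377, 181 and 241 in the WT libraries. Cldn8 had 97 counts in KO mouse 4, 64 in WT mouse 8 and 0 in the other 5 mice. Cldn3 had 83 counts in WT mouse 5 and Cldn14 had 27 in WT mouse 6, each with 0 in the other 6 mice. These genes were picked after their values were seen.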
